A study of Mus musculus with 2 samples.

Results

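Cd74, H2-Aa, H2-Ab1, H2-Eb1, H2-DMa and Ciita, genes of the class II antigen presentation machinery, were followed through sorted mouse regulatory T cells (Tregs). They are 6 of the 32285 genes listed in both deposited count matrices and were taken by symbol. Tregs are CD4 T cells that restrain immunity and carry the transcription factor Foxp3. The genes were selected on measured values, the CD25KO and CD25WT levels of Cd74 in these same libraries, so values of CD25KO against CD25WT describe the 2 libraries and test nothing. CD25WT cells had the genotype CD25WT/WT-tdTomato+/+-Foxp3eGFPCretERT2+/+, and CD25KO cells CD25FL/FL-tdTomato+/+-Foxp3eGFPCretERT2+/+, where CD25 is the interleukin-2 receptor alpha chain encoded by Il2ra. The Cre recombinase is driven by Foxp3 and switched on by tamoxifen, which mice of both groups received intraperitoneally at 2 mg/kg for 5 days, with harvest 10 days after induction. Viable cells positive for CD4, GFP and tdTomato were sorted from spleen in both groups, and an extra gate for low CD25 was set on the CD25KO cells. Each group is 1 droplet 3' library from 2 spleens pooled together. There is therefore no replicate, no p-value is given, and every interval printed is a 95% interval for counting error only, since cells of a library are not replicates.

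Class II molecules are surface proteins that show peptides from taken-up material to CD4 T cells, and in the mouse they are made constantly by B cells, dendritic cells and macrophages. H2-Aa and H2-Ab1 encode the alpha and beta chains of I-A, and H2-Eb1 encodes the beta chain of I-E. Cd74 encodes the invariant chain, which fills the groove of new class II molecules and also serves at the cell surface as a receptor for the cytokine MIF. H2-DMa encodes a chain of H2-M, which exchanges the invariant chain remnant for peptide, and Ciita encodes the coactivator that switches the class II genes on. Mouse T cells are known for lacking surface class II of their own making, so B cells in a sort, or RNA freed from them, can bring these transcripts into T cell droplets.

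The class II genes sit close together in the mm10 build: H2-Ab1 at chr17:34257689-34269419 on the plus strand, H2-Aa at chr17:34282744-34287823 on the minus strand and H2-Eb1 at chr17:34305867-34316674 on the plus strand. H2-DMa spans chr17:34119541-34139101 on the plus strand and overlaps Brd2 on the other strand, so reads of the pair are told apart only if counting used strand, which the sources used here do not state. Ciita spans chr16:10480059-10528418 and overlaps Dexi on the other strand, with the same limit, and H2-Eb1 overlaps the antisense gene Gm20513. Promoters of 3 of the 6 genes could be matched by symbol in RefSeq (GRCm38.p6). H2-Aa and H2-Eb1 are printed because their upstream bases hold the pair of elements through which Ciita is known to act, an X box bound by the RFX complex and a Y box bound by NF-Y. Capitals mark the 2 motifs searched, CTNGCAAC for X and ATTGG for Y, which were chosen after these sequences had been read. The stretches are chr17:34287827-34287942 on the minus strand and chr17:34305738-34305852 on the plus strand, written 5′ to 3′.
H2-Aa: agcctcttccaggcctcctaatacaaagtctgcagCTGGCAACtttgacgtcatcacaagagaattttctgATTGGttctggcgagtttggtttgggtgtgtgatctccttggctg
H2-Eb1: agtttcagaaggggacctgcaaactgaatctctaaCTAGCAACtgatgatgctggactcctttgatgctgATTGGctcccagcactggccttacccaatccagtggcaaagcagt
In H2-Aa the X motif starts 84 and the Y motif 48 bases before the transcription start, and in H2-Eb1 94 and 59 bases before it. Both strands of the 250 upstream bases of 32851 promoters were searched. The X motif was in 2.84% of them, the Y motif in 33.8%, and X followed by Y on the same strand, with 15 to 40 bases from start to start, in 35 (0.107%). H2-Ob, which encodes a chain of the H2-M inhibitor H2-O, holds the pair too. Neither of the 2 H2-DMa windows holds it. A match describes letters in a window and is not a measured binding site.

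The CD25WT matrix held 6620 barcodes and the CD25KO matrix 7530, with 36971834 and 36986849 unique molecular identifiers (UMIs, each 1 captured RNA molecule). The filter took cells of 500 or more detected genes whose mitochondrial UMIs made up no more than 10%, which left 6110 and 6952, with medians of 5229 and 4150 UMIs. They were split by a UMI of Cd79a, a B cell receptor component: 59 CD25WT and 50 CD25KO cells had one, and 6051 and 6902 had none. Joint clustering without the 6 genes gave 13 T cell clusters with 5975 and 6829 Cd79a-undetected cells, called T cells below. Cd3e was found in 93.5% and 94.2% of them and Foxp3, a low-count transcript, in 16.0% and 10.0%. Il2ra, the targeted gene, stood at 126 CPM among CD25WT and 32.6 CPM among CD25KO T cells, where the low CD25 gate also acts and the deleted exons are not stated, so 3' counts need not show the deletion. Clusters of other lineages held 37 and 35 cells in cluster 14 (B cell-like by its leading genes), 25 and 30 dendritic and myeloid-like and 29 and 19 erythroid-like cells. All cluster names are rebuilt here from marker genes, clusters without enough markers stay unnamed, and 107 barcodes occur in both matrices (35 and 40 among kept cells). Leaving them out put the log2 ratio of Cd74 in CD25KO over CD25WT, among Cd79a-undetected cells, at 1.39, beside 1.37 with them. The doublet caller marked 1 and 0 cells and is taken to have failed, so doublets remain in the values.

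Cd74 (chr18:60803848-60812652 in mm10, plus strand) was the one gene of the 6 that lay over 2-fold apart while also well counted. Levels are summed UMIs per 1000000 UMIs of the same cells (CPM). In Cd79a-undetected cells Cd74 stood at 51.2 CPM for CD25WT (1797 UMIs) and 133 CPM for CD25KO (4702 UMIs), a 2.59-fold difference or 1.37 on the log2 scale (interval 1.29 to 1.45). Within the T cells it stood at 30.4 CPM (28.6 to 32.3) and 118 CPM (115 to 122), a 3.89-fold difference or 1.96 on the log2 scale (1.86 to 2.06). The sets differ mainly by the cells of cluster 14 without a Cd79a UMI, of which 16 gave 695 of the CD25WT UMIs and 15 gave 405 of the CD25KO UMIs. Over all kept cells, B cells included, the values were 80.1 and 160 CPM.

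For scale, 7126 genes had a mean level of 10 CPM or more in Cd79a-undetected cells, and of these 250 (3.51%) lay 2-fold or more higher in CD25KO and 41 (0.575%) 2-fold or more lower, around a median log2 ratio of 0.21. Under TMM scaling these counts were 156 higher and 66 lower and the median was −0.01, so 85.9% of the 2-fold genes lay higher by plain CPM and 70.3% by TMM. Among T cells alone the shares were 3.61% higher and 0.589% lower. Of the 6 genes, 2 reached the 10 CPM minimum, Cd74 and H2-DMa, and 1 of these was 2-fold higher and 0 lower. Cd74 was part of the reason for choosing the genes, so nothing is read from that count. H2-Aa, H2-Ab1, H2-Eb1 and Ciita fell below the minimum in either set of cells.

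The 3 class II chain genes were near the floor of detection in T cells of both libraries. H2-Aa gave 46 UMIs in CD25WT and 85 in CD25KO (1.33 and 2.42 CPM), a log2 ratio of 0.87 (0.33 to 1.42). H2-Ab1 gave 52 and 99 UMIs, a log2 ratio of 0.91 (0.41 to 1.42), and 14 of the 52 came from a single CD25WT cell. H2-Eb1 gave 66 and 182 UMIs (1.91 and 5.19 CPM), a log2 ratio of 1.45 (1.03 to 1.87). All 3 lay higher in CD25KO T cells, by less than Cd74 did over all T cells. Cd74 was part of the reason for choosing the genes, so nothing is read from that order. Together the 3 chain genes made up 4.74 and 10.4 CPM, with at least 1 UMI in 1.34% and 3.44% of T cells. Of their CD25WT UMIs in T cells, 63 of 164 lay in the 78 cells of Cycling-like cluster 13. By cluster, their summed log2 ratio exceeded that of Cd74 in clusters 1 (3.55 against 3.15), 2 (3.20 against 2.53), 5, 9 and 12. It lay below that of Cd74 in clusters 3 (1.25 against 1.39), 6 and 8, and cluster 10 held no CD25WT class II UMI. Class II intervals in single clusters were wide.

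The direction of H2-Aa and H2-Ab1 rests on which cells are counted. Over all Cd79a-undetected cells, H2-Aa was at 8.84 CPM among CD25WT and 8.37 CPM among CD25KO cells, with the log2 ratio at −0.08 (−0.31 to 0.16). H2-Ab1 stood at 7.38 and 7.11 CPM, a log2 ratio of −0.06 (−0.31 to 0.20). H2-Eb1, at 7.64 and 10.8 CPM, had a log2 ratio of 0.50. Those sums hold few T cell UMIs: the 3 genes gave 837 UMIs in Cd79a-undetected CD25WT cells, of which 164 were in T cells and 199 in a single barcode of cluster 14 that also held 205 Cd74 UMIs. The markers of the 16 and 15 cells of cluster 14 without Cd79a go against a B cell name, and none is given to them. The B cell list without Ighm gave 52 and 17 UMIs there, against 1540 and 1298 in the 21 and 20 B cell-like cells with Cd79a. The dendritic and myeloid list stood at 12372 and 8534 CPM, against 239 and 372 CPM in the cells with Cd79a.

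Ciita, the switch for this gene family, was found 11 times in CD25WT T cells and 24 times in CD25KO T cells (0.318 and 0.685 CPM), a log2 ratio of 1.11 (0.02 to 2.28). It was detected in 0.184% and 0.337% of T cells. At these counts its level in single clusters could not be ordered. H2-DMa was counted as often as Cd74 in CD25WT: T cells held 1174 and 1796 UMIs (33.9 and 51.2 CPM), found in 15.5% and 20.8% of cells, with a log2 ratio of 0.60 (0.49 to 0.70). Under TMM scaling of the T cells that ratio was 0.36.

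In B cell-like cells with Cd79a the class II genes were among the abundant transcripts, in like amounts in the 2 libraries. Cd74 stood at 9415 CPM over 21 CD25WT cells and 9958 CPM over 20 CD25KO cells and was present in 100% of these cells. H2-Aa stood at 2783 and 2763 CPM, H2-Ab1 at 2002 and 2009 CPM and H2-Eb1 at 2002 and 2402 CPM. H2-DMa, at 230 and 319 CPM, and Ciita, at 211 and 138 CPM, were lower. Dendritic and myeloid-like cells (cluster 16) lay between B cells and T cells, with Cd74 at 354 CPM for CD25WT and 803 CPM for CD25KO. The 3 class II genes together stood there at 264 and 676 CPM. Leading genes of cluster 16 were C1qa, Apoe, Hmox1, Vcam1, C1qb and C1qc. Itgax, Zbtb46, Flt3, Xcr1, Clec9a, Siglech and Cd209a were not among its 20 leading genes, so these levels need not hold for dendritic cells. The cells of cluster 14 without Cd79a, where the dendritic and myeloid list stood high, held 695 and 405 Cd74 UMIs. B cell-like cells with Cd79a held 1025 and 937. H2-DMa in cluster 16 was at 22.6 CPM (4.66 to 66.0) and 42.2 CPM (17.0 to 87.0), intervals that span the T cell values.

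**Figure D1:**
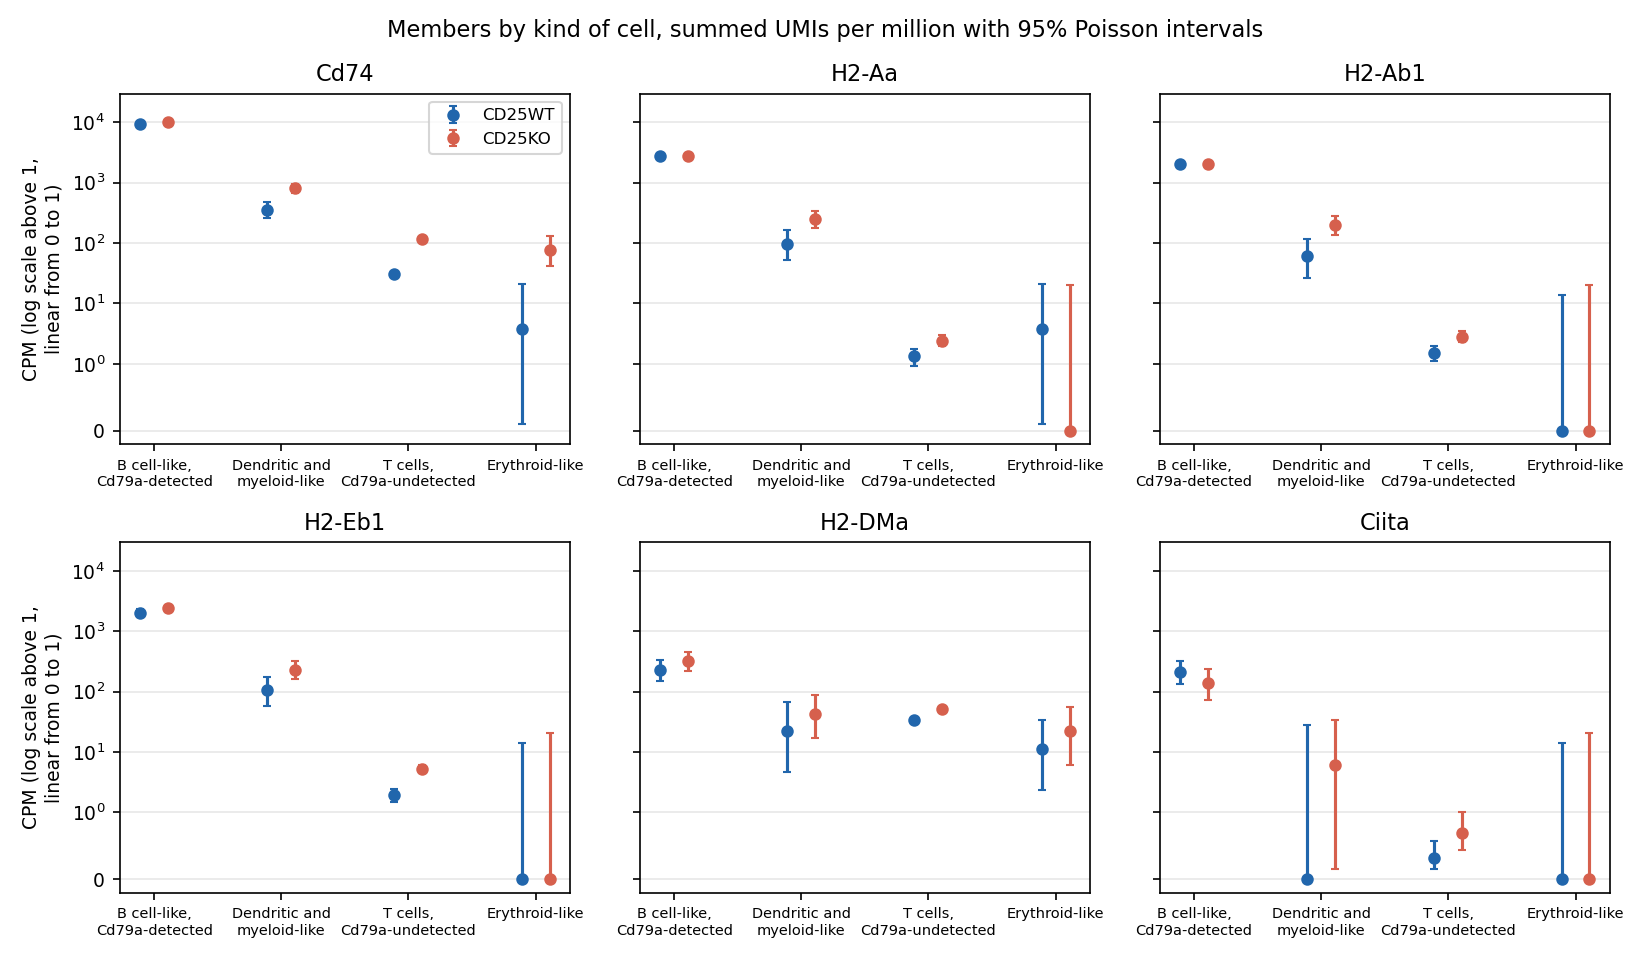
Levels of the 6 genes in B cell-like, dendritic and myeloid-like, T and erythroid-like cells of each library, as CPM on an axis that is logarithmic above 1 and linear from 0 to 1, with 95% Poisson intervals as bars. Cd74 and the class II genes fall from B cell-like cells to T cells by orders of magnitude, while H2-DMa falls from 230 to 33.9 CPM in CD25WT.

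Cells at the Cd79a threshold lay between T cells and B cells. Cells with a single Cd79a UMI (38 in CD25WT, 28 in CD25KO) held Cd74 at 97.6 and 779 CPM and class II transcripts at 85.4 and 552 CPM. Cells with more than 1 such UMI (21 and 22) held Cd74 at 9658 and 7394 CPM. The Cd79a-detected cells that clustered with T cells (38 and 30) had Cd74 at 61.9 and 382 CPM. At the gene-number threshold, kept cells with under 100 genes more than the minimum of 500 had Cd74 at 1264 CPM (27 cells) and 1890 CPM (47 cells), and barcodes with under 100 genes less, left out, at 497 and 2891 CPM.

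A Cd74 UMI was found in 593 of 5975 CD25WT T cells (9.92%, 9.18% to 10.7%) and in 1797 of 6829 CD25KO T cells (26.3%, 25.3% to 27.4%). The CD25KO cells were the shallower ones, with a median of 4149 UMIs against 5238, and the low CD25 gate was set on that library alone. With each cell thinned to 2000 UMIs, which left out 68 and 355 shallower T cells, the shares were 4.76% (4.23% to 5.33%) and 15.9% (14.98% to 16.8%). At least 1 class II UMI was then found in 0.542% and 1.67% of T cells, and H2-DMa in 5.94% and 9.79%. Cd74 came in small numbers per cell: 391 CD25WT T cells held 1 UMI, 114 held 2 and 8 held 10 or more, with 22 as the highest. In CD25KO, 910 held 1 UMI, 402 held 2 and 30 held 10 or more, with 37 as the highest. The top 1% of T cells by Cd74 held 33.2% of its UMIs in CD25WT and 18.1% in CD25KO.

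Erythroid-like cells, which should lack the gene, gave a background reading. A Cd74 UMI was found in 1 of 29 CD25WT cells (3.45%) and in 6 of 19 CD25KO cells (31.6%), at medians of 8364 and 8725 UMIs, which are above those of T cells. All 7 of these cells also held a T cell transcript. Among erythroid-like cells without one, 0 of 14 and 0 of 5 held Cd74, at medians of 3929 and 3842 UMIs, and so few cells allow shares up to 21.4% and 60%. The CD25KO share in T cells did not exceed the share in all erythroid-like cells (interval 12.6% to 56.6%), which rests on 19 cells. Whether the T cell share is expression or background was not tested. As a level, CD25KO erythroid-like cells held 76.9 CPM (42.1 to 129) against 118 CPM in T cells, and CD25WT erythroid-like cells 3.78 CPM against 30.4 CPM. What part free RNA or joined cells had in these values was not tested. Class II transcripts gave 1 UMI in the CD25WT and 0 in the CD25KO erythroid-like cells.

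The ratio of Cd74 to class II UMIs differed between kinds of cell. Free RNA from only 1 source would enter the droplets of a library in the ratio its genes have in that source. How many sources there are here is not known. B cell-like cells with Cd79a held 1.39 Cd74 UMIs per class II UMI in each library (1.26 to 1.53 in both). T cells held 6.42 (5.44 to 7.62) in CD25WT and 11.3 (10.2 to 12.7) in CD25KO. Neither interval reaches that of B cells. In several single clusters the 2 libraries lay closer, as in cluster 12 (11.5 and 11.3) and cluster 3 (16 and 17.8). They lay further apart in cluster 4 (3.40 and 13.2) and cluster 13 (2.17 and 7.45). In clusters 1 (11.2 and 8.44), 2 (11.6 and 7.30), 5 (22.8 and 18.7) and 9 (7 and 4.57) the ratio was lower in CD25KO, with overlapping intervals. Cluster 13 of CD25WT held 63 of the 164 class II UMIs in CD25WT T cells and 137 of the 1053 Cd74 UMIs, which lowers the CD25WT ratio. Dendritic and myeloid-like cells held 1.34 and 1.19, and the barcodes that failed the filter, which have few detected genes or much mitochondrial RNA, held 513 Cd74 to 342 class II UMIs in CD25WT and a ratio of 1.25 in CD25KO. At the ratio of B cell-like cells, the class II UMIs found in T cells go with 227 Cd74 UMIs in CD25WT and 508 in CD25KO, which are 21.6% and 12.2% of the Cd74 UMIs counted there. Other ratios differed between sets. Per UMI of the immunoglobulin gene Igkc, the failed barcodes held 0.258 and 1.38 Cd74 UMIs, against 1.82 and 1.56 in B cell-like cells with Cd79a. The part of B cell RNA in the Cd74 of T cells was not tested.

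**Figure D2:**
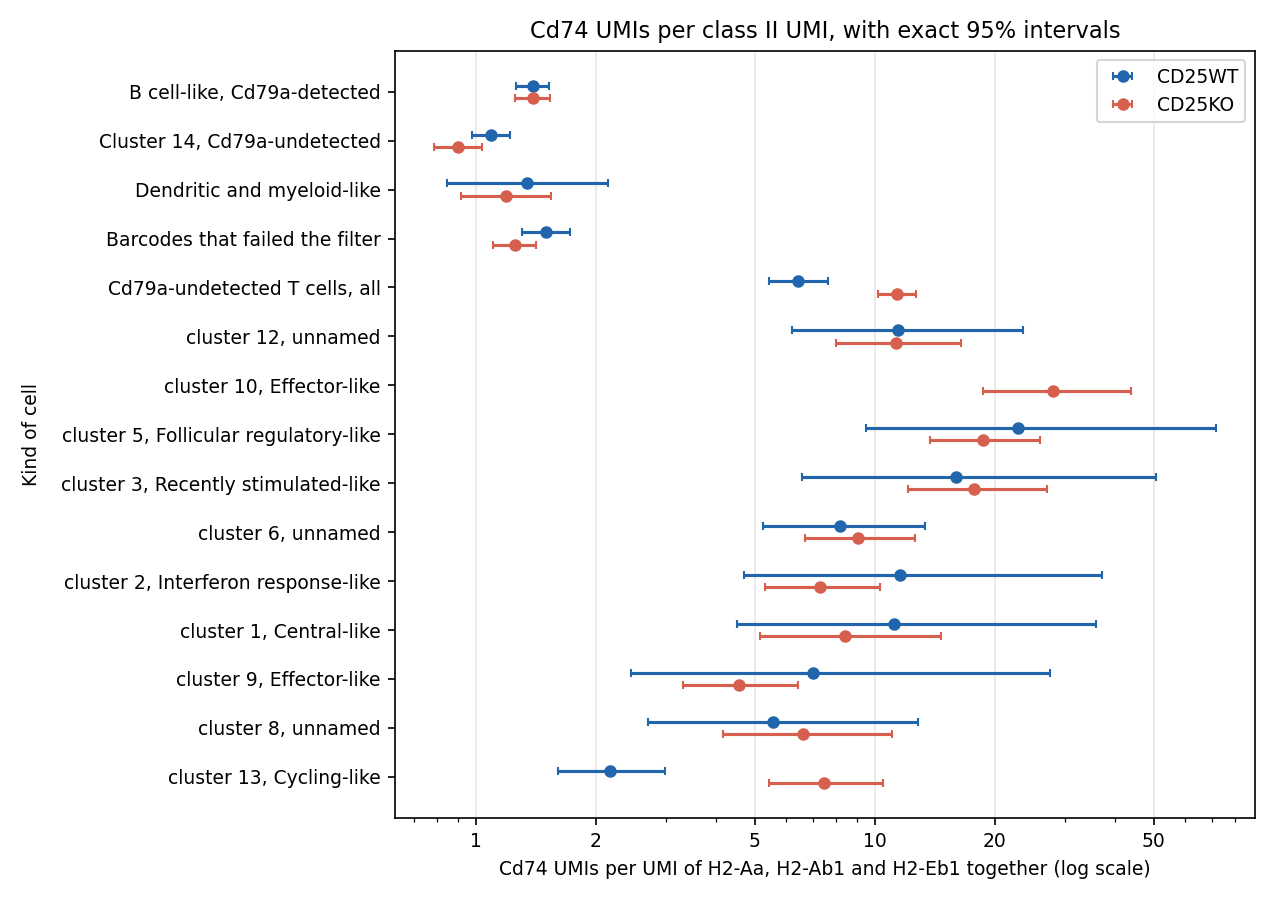
Cd74 UMIs per UMI of H2-Aa, H2-Ab1 and H2-Eb1 together, by kind of cell, cluster and library, on a log axis with exact 95% intervals; cluster 10 of CD25WT has no class II UMI and no point. B cell-like cells with Cd79a lie at 1.39 in both libraries and T cells at 6.42 and 11.3.

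B cell transcripts in T cells gave no single answer when used the same way. Igkc, an immunoglobulin light chain gene, stood at 6.15 CPM among CD25WT and 34.0 CPM among CD25KO T cells (213 and 1192 UMIs, 125 of them in a single CD25KO cell), and at the B cell ratio its UMIs go with 36.8% and 44.9% of the Cd74 UMIs. Ms4a1, which encodes CD20, gave 10 and 5 UMIs, which go with 9.45% and 1.71%. Ighd, an immunoglobulin heavy chain gene, gave 57 and 233 UMIs, which go with 103% and 112%. Cd74 UMIs per Ighd UMI were 18.5 and 17.8 in T cells against 19.0 and 19.9 in B cell-like cells, so by Ighd alone the ratio was that of B cells. Cd79b gave 368% and 130%, more Cd74 than was counted, and is therefore above its B cell proportion in T cells. Ighm, another immunoglobulin heavy chain gene, gave 3236% and 2010%, so it too is above its B cell proportion there. The B cell list without Ighm gave 69.28% and 44.98%. Cd79b made up 457 of its 1096 UMIs in CD25WT and 719 of its 2586 in CD25KO, so this list still holds a gene above its B cell proportion. Whether Ighd in T cells follows B cell RNA was not tested.

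The defining B cell markers were mostly sparse in T cells, and they did not move together. Of the 15 B cell genes followed, Cd79a is 0 in T cells by the rule, and 3 reached 10 CPM: Cd79b, Ighm and Igkc. Cd22 went from 37 to 155 UMIs, while Ly6d went from 84 to 25 and Ebf1 from 15 to 5. Without Ighm the list summed to 31.7 CPM over CD25WT and 73.8 CPM over CD25KO T cells, or 1.22 on the log2 scale beside the 1.96 of Cd74. That sum includes Cd79b, at 13.2 and 20.5 CPM. Ighm stood at 223 and 389 CPM. Of the 15 dendritic and myeloid genes, Flt3, Clec9a and Cd209a were at 0 in T cells of both libraries and 1, Cst3, reached 10 CPM (105 and 141 CPM). Below that minimum, Fcer1g gave 21 and 59 UMIs (log2 ratio 1.47, 0.73 to 2.27), Cd68 35 and 83 (1.23) and Zbtb46 50 and 111 (1.13), while Lyz2 gave 21 and 14. The whole list stood at 111 and 151 CPM, a log2 ratio of 0.45. The share of the Cd74 difference that comes with these transcripts was not tested.

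Within single T cells, Cd74 was found more often where a class II UMI was found. A Cd74 UMI was found in 9.47% of the 5895 CD25WT T cells with no class II UMI, in 33.9% of the 59 with 1 and in 84.6% of the 13 with 3 or more. In CD25KO the shares were 24.9% of 6594, 59.1% of 164 and 89.7% of 29. Cells without a class II UMI held 901 of the 1053 Cd74 UMIs (85.6%) in CD25WT and 3391 of 4150 (81.7%) in CD25KO. They were 98.7% of CD25WT and 96.6% of CD25KO T cells, so they held less Cd74 than their share of cells. Cells with a class II UMI were deeper, with medians of 6205.5 against 5221 UMIs in CD25WT and 5342 against 4121.5 in CD25KO. After thinning, 4.58% and 15.3% of cells without a class II UMI held Cd74, and 28% and 46.8% of cells with 1 did.

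**Figure D3:**
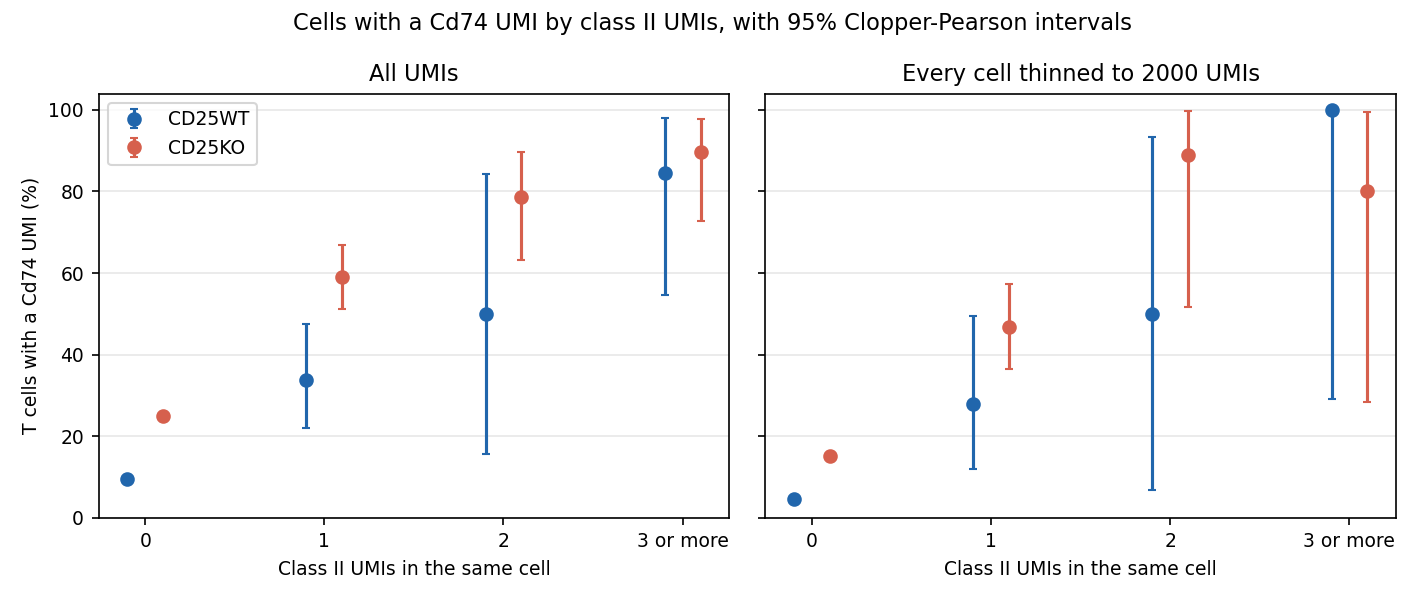
Percent of T cells with a Cd74 UMI by the number of class II UMIs in the same cell, for all UMIs and after thinning each cell to 2000 UMIs, with 95% Clopper-Pearson intervals. At 0 class II UMIs the shares are 9.47% in CD25WT and 24.9% in CD25KO, and they are higher in cells with more class II UMIs.

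Cells with 3 or more Cd74 UMIs numbered 88 in CD25WT and 485 in CD25KO. Class II UMIs were found in 19.3% and 19.2% of them, against 0.836% and 1.57% of T cells with no Cd74. Igkc was found in 10.2% and 8.45% of them against 1.24% and 4.15%, and Ighd in 3.41% and 5.15% against 0.669% and 2.50%. Their median depths, 6995 and 5544 UMIs, were above the 5160.5 and 3995.5 of cells without Cd74, and 7.95% and 9.69% of them were among the highest doublet scores against 5.31% and 5.74%. Foxp3 was found in 13.6% and 12.8% of them against 16.0% and 9.70%. Their doublet scores and depth were thus higher on the side of more Cd74 in both libraries, and their part in the class II UMIs was not tested.

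Across Treg clusters, Cd74 was higher in CD25KO in each of the 9 clusters with at least 100 T cells in both libraries. The clusters were made without the 6 genes, and the low CD25 gate and the depth gap lie between the libraries in each. The Central-like cluster 1, led by Ly6c1, Igfbp4 and Lef1, went from 11.2 CPM (56 UMIs) to 98.7 CPM (152 UMIs), a log2 ratio of 3.15 (2.70 to 3.62). The Interferon response-like cluster 2, led by Ifit3 and Isg15, went from 20.6 to 119 CPM, a log2 ratio of 2.53 (2.12 to 2.96). The Effector-like cluster 10, led by Ccl5 and Klrg1, went from 86.3 to 156 CPM, a log2 ratio of 0.86 (0.40 to 1.35). The other 6 clusters lay between 1.12 (Effector-like cluster 9) and 1.79 (unnamed cluster 12). Cluster 1, the lowest in Cd74 in CD25WT, was therefore not the lowest in CD25KO.

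In CD25WT the clusters formed an upper and a lower group. Clusters 10, 12 (unnamed, led by Srm and Tnfrsf9), 5 (Follicular regulatory-like), 3 (Recently stimulated-like) and 6 (unnamed) lay from 86.3 down to 54.1 CPM, and each interval overlapped that of its neighbour. After a gap came cluster 9 at 27.4 CPM, and then clusters 2, 0, 8, 7 and 1 from 20.6 down to 11.2 CPM, again with overlapping neighbours. Clusters 0, 1 and 7 are all Central-like. In CD25KO cluster 12 was highest, at 244 CPM, clear of the next. Clusters 10, 5, 4, 3, 6, 2, 1 and 13 followed from 156 to 94.2 CPM with overlapping neighbours, and clusters 9 (59.4 CPM) and 8 (34.4 CPM) lay apart below them.

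**Figure D4:**
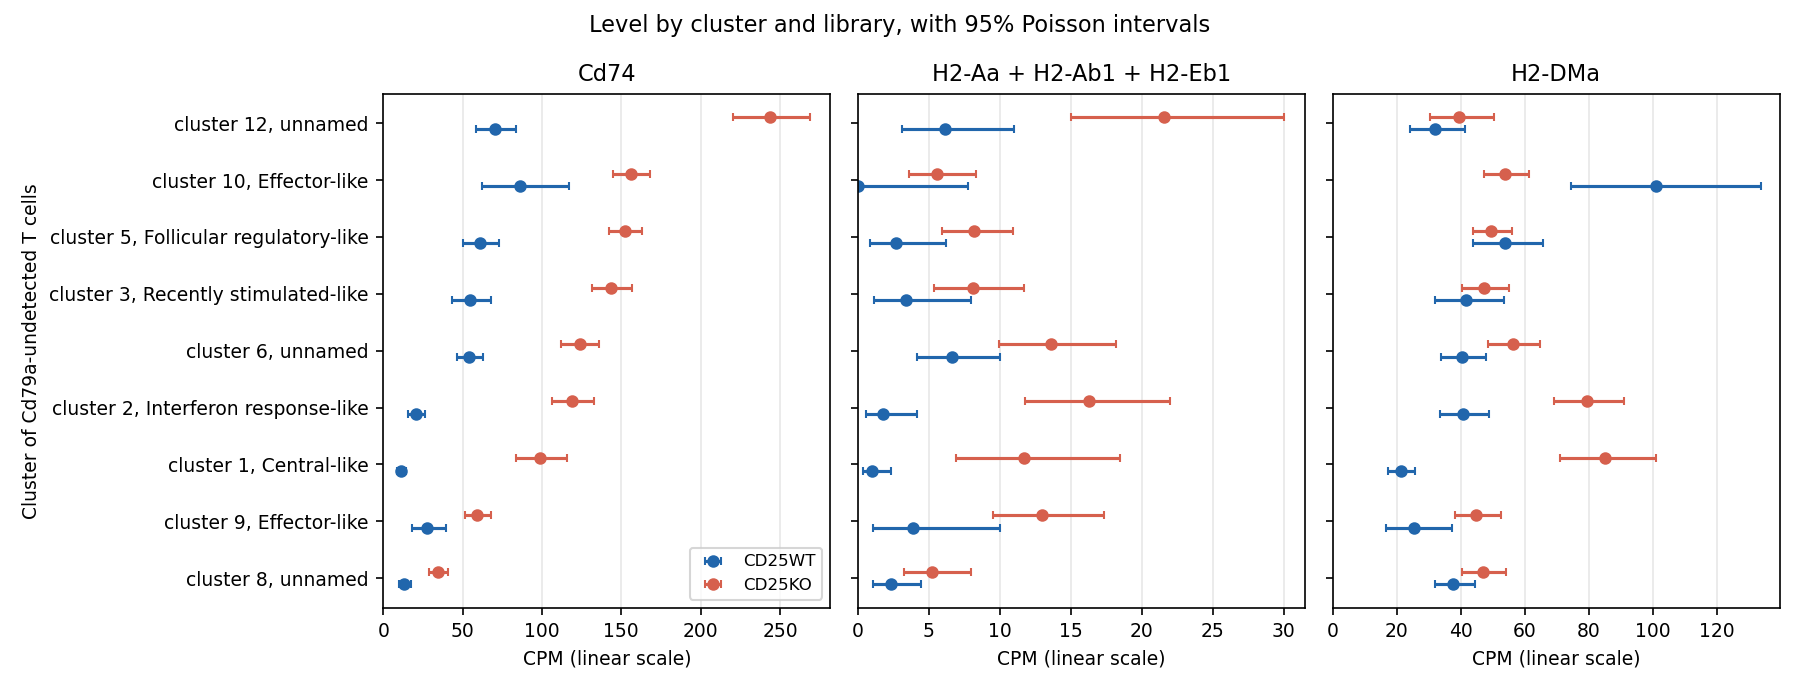
Cd74, the 3 class II genes summed and H2-DMa in the 9 clusters with at least 100 T cells in both libraries, as CPM on linear axes with 95% Poisson intervals. Cd74 is higher in CD25KO in all 9, from 34.4 CPM in cluster 8 to 244 CPM in cluster 12, while H2-DMa in cluster 10 goes from 101 CPM in CD25WT to 53.9 CPM in CD25KO.

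Several clusters belong almost to 1 library. Cluster 0, whose leading genes include Il2ra and Socs2, is 97.4% CD25WT and cluster 7 is 92.4% CD25WT, so they may mark the library and not a state. Their Cd74 levels in CD25WT were 16.1 and 11.8 CPM. Cluster 10 is 9.37% CD25WT, and its CD25WT values rest on 116 cells. Of the Follicular regulatory-like T cells, 372 of 446 in CD25WT and 1081 of 1327 in CD25KO come from cluster 5. Only 2 markers of that state, Sostdc1 and Tox2, were among the 20 leading genes of cluster 5. Over the named states, Central-like T cells went from 13.5 to 87.9 CPM (log2 2.70), where 362 of the CD25KO cells come from cluster 1, Effector-like from 46.1 to 112 CPM (1.29) and Follicular regulatory-like from 57.7 to 151 CPM (1.39). Cycling-like cells were the exception: 114 CPM in CD25WT, with only 78 cells, and 94.2 CPM among CD25KO cells, or −0.28 on the log2 scale (−0.57 to 0.02).

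Class II counts were too low to order the clusters, since the interval of each overlapped that of its neighbour. In CD25KO, cluster 12 was highest and cluster 8 lowest for class II transcripts as for Cd74. In clusters of at least 100 T cells their sum lay between 0 and 6.61 CPM in CD25WT and between 5.19 and 21.6 CPM in CD25KO. Cluster 1 went from 5 to 18 UMIs (0.996 to 11.7 CPM) and cluster 2 from 5 to 43 UMIs (1.77 to 16.3 CPM). Their log2 ratios, 3.55 (2.07 to 5.34) and 3.20 (1.87 to 4.89), were the largest for class II where both libraries held such UMIs. These clusters also had the largest Cd74 ratios. Cluster 10, among the highest for Cd74 in both libraries, held 0 class II UMIs in CD25WT (upper bound 7.76 CPM) and 24 in CD25KO (5.57 CPM). It had 28 Cd74 UMIs per class II UMI in CD25KO (18.7 to 44.0), against 4.57 (3.30 to 6.43) in cluster 9. Cycling-like cluster 13 of CD25WT held 63 class II UMIs in 78 cells, 24 of them in a single cell, and had the lowest ratio, 2.17 (1.60 to 2.98), against 7.45 in CD25KO.

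The B cell transcripts of each cluster stand beside these values. In cluster 1 Igkc stood at 2.39 and 2.60 CPM, the B cell list without Ighm at 17.3 and 24.0 CPM (log2 0.47, −0.12 to 1.04) and Ighm at 211 and 141 CPM, while Cd74 lay 8.85-fold apart. Its Igkc rests on 12 and 4 UMIs, with a log2 interval of −1.97 to 1.84. In cluster 2, with the next largest Cd74 ratio, Igkc went from 0.709 CPM (2 UMIs) to 12.5 CPM (33 UMIs), a log2 ratio of 4.14 (2.17 to 7.24), and the same list stood at 29.4 and 39.8 CPM. In cluster 12 the list stood at 17.9 and 40.7 CPM. In cluster 10 Igkc went from 2.10 CPM (1 UMI) to 53.9 CPM (232 UMIs). The part of B cell RNA in the Cd74 values of these clusters was not tested.

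H2-DMa lay in opposite directions in 2 clusters. In cluster 1 it went from 21.3 CPM (107 UMIs) to 85.1 CPM (131 UMIs), a log2 ratio of 2.00 (1.62 to 2.38), and cluster 1 had its lowest level in CD25WT and its highest in CD25KO, in both cases with an interval that overlapped the neighbour's (cluster 9 at 25.4 CPM and cluster 2 at 79.6 CPM). In cluster 10 it went from 101 CPM (48 UMIs) to 53.9 CPM (232 UMIs), a log2 ratio of −0.91 (−1.36 to −0.43). Cluster 2 had a log2 ratio of 0.96, cluster 9 of 0.82 and cluster 5 of −0.12. Cd74 UMIs per H2-DMa UMI were 0.897 and 2.31 in T cells against 41 and 31.2 in B cell-like cells with Cd79a, so T cells held far more H2-DMa for their Cd74 than B cells did.

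Over the 11 clusters of each library with at least 100 T cells, log2(CPM + 10) of Cd74 was correlated with that of other genes as a description. The clusters share a library and differ in depth. Its Pearson correlation with the class II sum was 0.23 in CD25WT and 0.40 in CD25KO. Of the single chain genes, H2-Aa gave 0.21 and 0.73, H2-Ab1 −0.0018 and 0.065 and H2-Eb1 0.26 and 0.24, all from few UMIs per cluster. With H2-DMa it was 0.70 and −0.02. With the B cell list without Ighm it was 0.61 and 0.07, with Igkc 0.29 and −0.08, and with Mif 0.47 and 0.43. Among the 8 of 5151 genes most like Cd74 in both libraries were Ergic1 (0.91 and 0.83), Bet1, Cd83 (0.86 and 0.82), Tnfrsf9 (0.85 and 0.81), Cd81, Zmiz2 and St13. Cd83 and Tnfrsf9 are induced on activated T cells. The 8 most like H2-Aa, a gene of few UMIs per cluster, were Nop10, Timm9, Hmgn1, 1190007I07Rik, Mrpl23, Ndufaf4, Bzw2 and Micos13, and none is shared with the first list.

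The other genes of the pathway come from lists chosen with earlier results known. Cd74 was part of the reason for choosing the genes, so its distance from these lists is not read as a result. Of the 7125 genes that reached 10 CPM in T cells, 3.61% were 2-fold higher and 0.589% 2-fold lower, so a short list would hold few. Of 20 class II pathway genes in the matrices, 12 reached 10 CPM, 0 were 2-fold higher and 1 was 2-fold lower, with a median log2 ratio of 0.32 beside 0.21 over all genes. The lower one was H2-Ob, which went from 16.6 CPM (573 UMIs) to 6.68 CPM (234 UMIs), a log2 ratio of −1.31, while its partner chain gene H2-Oa went from 14.7 to 24.7 CPM (0.75). H2-DMb1 and H2-DMb2, whose products pair with that of H2-DMa, gave 13 and 21 UMIs in CD25WT and 23 and 50 in CD25KO. The proteases that cut the invariant chain and antigen lay at log2 ratios of 0.32 (Ctss) and 0.80 (Ctsb, 87.3 and 152 CPM), the thiol reductase Ifi30 at 0.77 and the signal peptide peptidase Sppl2a, which clears invariant chain remnants, at 0.43. Among the factors that bind the promoter boxes, those that reached the minimum lay between −0.05 (Nfya) and 0.44 (Rfxank).

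The next counts stand beside 3.61% of genes 2-fold higher and 0.589% 2-fold lower in T cells, so 0 in a short list says little. Partners of Cd74 at the cell surface were mostly well counted. Of 6 listed, 4 reached 10 CPM and 0 were 2-fold apart: its ligands Mif (349 and 370 CPM, 0.08) and Ddt (0.24), its signalling partner Cd44 (41.6 and 69.3 CPM, 0.74) and Cxcr4 (−0.01). Of 17 interferon-gamma and class I genes, 16 reached 10 CPM and 0 were 2-fold apart, with a median of 0.30. The kinase gene Jak2, which acts in interferon signalling, lay at 0.85, the receptor chain gene Ifngr2 at −0.77 and the class I light chain gene B2m at 0.35. Ifng itself, below the minimum, gave 114 and 267 UMIs. Of 6 costimulation genes of antigen presenting cells, 3 reached the minimum and 1 was 2-fold higher, Pdcd1lg2, which encodes the PD-1 ligand PD-L2 (19.1 and 42.0 CPM, 1.14). Cd80, below the minimum, gave 23 and 108 UMIs, and Cd86 stood at 14.97 and 14.1 CPM.

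**Figure D5:**
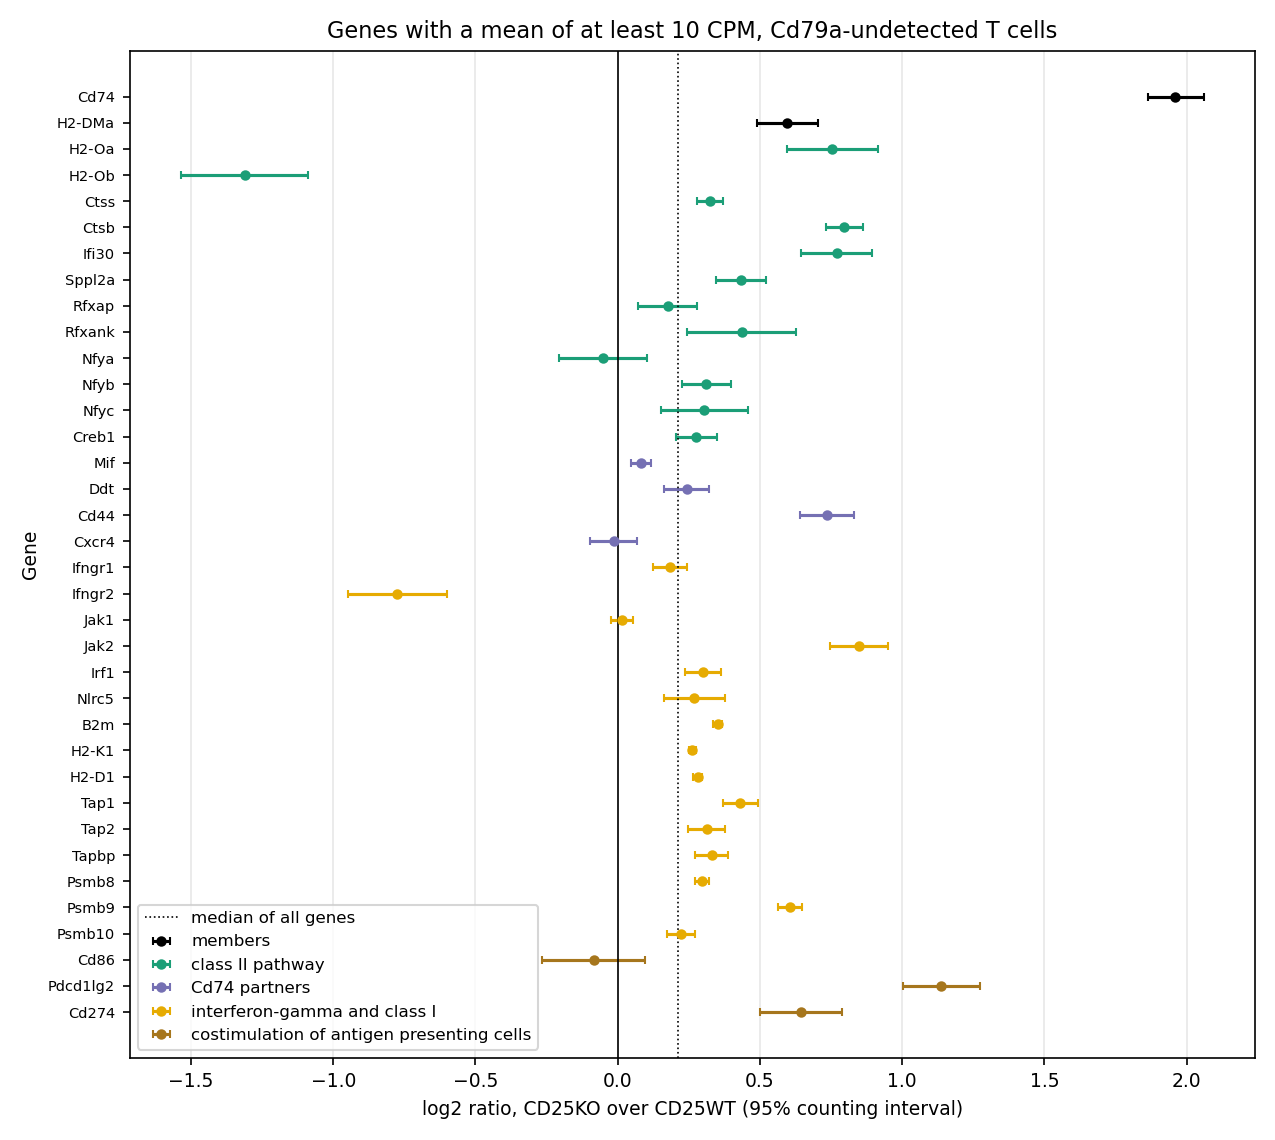
Log2 ratio of CD25KO over CD25WT in T cells for genes of the members and 4 lists (class II pathway, Cd74 partners, interferon-gamma and class I, costimulation) that reached 10 CPM on average, coloured by list and without cell type markers, with 95% counting intervals; the dotted line is the median of all genes (0.21). Cd74 at 1.96 and Pdcd1lg2 at 1.14 lie over 2-fold higher, H2-Ob at −1.31 lies over 2-fold lower, and the other genes plotted lie within 2-fold.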

How the data were processed

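Single-cell 3' libraries were prepared from sorted splenic Tregs, 1 per group. The authors deposited unnormalized UMI counts for each gene and barcode. Per the file headers, they come from Cell Ranger 6.0.0, and per the submitters' processing notes the build is mm10. Which annotation the counting used was not given in the sources used here. No column of another sample was present (0). Total counts were 36971834 and 36986849, and the precision of a value is that of the UMIs behind it.

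Members and lists were chosen with earlier results of these data known. The genes named are the 6 members, genes that pair with them as ligand, cofactor, protease or regulator, and the 8 most like Cd74 and H2-Aa; others were named after their values were seen. Certain listed genes are left unreported here. Kept cells were clustered together with Scanpy 1.11.5 and the Leiden method of igraph 0.11.9 (2000 variable genes, 30 components, 15 neighbours, resolution 1), leaving out members, class II, antigen presentation, immunoglobulin, T cell receptor segment, Il2ra, Xist, Y-linked, haemoglobin, mitochondrial and ribosomal protein genes. UMIs were summed per library and set of cells and scaled to CPM. Intervals are exact Poisson for sums, exact conditional for ratios and Clopper-Pearson for shares (SciPy 1.17.1), all at 95%. Fitted models and p-values were not used, since there is 1 library per group. Thinning drew 2000 UMIs per cell. Gene positions come from the GENCODE M21 annotation of the same build. Alternatives included TMM factors (edgeR 4.0.16), other cell filters, removal of the highest Scrublet doublet scores (324 and 419 cells) and other clusterings. The ratio step was tested on simulated data.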

Additional observations from a re-analysis of the deposited data

Results flagged for a closer look

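The H2-DMa ratio of CD25KO over CD25WT had opposite signs in 2 Treg clusters. On the log2 scale it was 2.00 in the Central-like cluster 1 and −0.91 in the Effector-like cluster 10, and neither counting interval reached 0. The difference between the clusters was not tested, since each group is 1 library. Cluster 10 of CD25WT rests on 116 cells and 48 H2-DMa UMIs.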

How the results depend on the processing

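Several alternatives were chosen after seeing the data, namely the limits to T cells with a Foxp3 UMI, without class II UMIs, without 8 B cell genes (Cd79a, Cd79b, Ms4a1, Pax5, Ebf1, Cd22 and Ighd among them) or without Il2ra in CD25WT, the TMM factors for T cells and for the counts of 2-fold genes, equal cluster shares and leaving out shared barcodes. No paired analysis was possible because each group has 1 library. A value counted as moved when it left its counting interval, and a number of genes when it changed over 1.5 times. Of the values that answer a comparison, 27 had not moved and 35 had; of the single-gene values, 46 had not, 19 had and 17 changed sign. The Cd74 log2 ratio (1.37 in Cd79a-undetected cells) stayed above 0 in all settings run: 1.48 with the stricter cell filter, 1.96 in T cells, 1.54 thinned, 2.24 with a Foxp3 UMI, 1.81 against CD25WT cells without Il2ra, 1.94 without class II UMIs, 2.04 without the 8 B cell genes, 1.18 without ribosomal protein and mitochondrial genes in the total, 1.14 with TMM, 1.15 with median-of-ratios factors, 1.73 in T cells with TMM, 1.05 with equal weight per cell and 1.57 at the CD25WT cluster shares. Cd74 per class II UMI (2.15 in CD25WT) was 2.41 with the stricter filter, 6.42 in T cells and 2.51 thinned; in CD25KO (5.05) it was 3.96 with no filter, 6.47 with the stricter one, 4.59 with B gene cells set apart, 11.3 in T cells and 4.48 thinned. The share with Cd74 was 4.95% thinned in CD25WT (10.4%), and in CD25KO (26.7%) it was 25.6% with no filter, 25.2% with B gene cells set apart and 16.2% thinned. By state, the Cd74 log2 ratio was 2.37 at resolution 0.5 and 2.25 with 15 components for Central-like (2.70), 0.62 at resolution 0.5 for Effector-like (1.29), 1.66 at resolution 1.5 for Follicular regulatory-like (1.39), 3.001 at resolution 1.5 for Interferon response-like (2.53) and 1.81 at resolution 0.5 for Recently stimulated-like cells (1.39). Genes 2-fold higher numbered 384 at 5 CPM, 168 at 20 CPM and 156 with TMM (250), and 2-fold lower 67, 30 and 66 (41). The sign changes were all of H2-Aa and H2-Ab1. H2-Aa (−0.08) was 0.28 with no filter, 0.041 with B gene cells set apart, 0.87 in T cells, 0.70 thinned, 2.15 with a Foxp3 UMI, 0.51 against cells without Il2ra, 1.20 without B cell genes, 0.63 in T cells with TMM and 0.51 at CD25WT shares. H2-Ab1 (−0.06) was 0.28, 0.91, 0.49, 2.08, 0.53, 1.15, 0.68 and 0.70 under the same settings, leaving out that with B gene cells set apart. The 199 class II UMIs of 1 CD25WT barcode lie outside the T cells; otherwise the cause was not tested. Depth limits class II and Ciita values, which rest on 11 to 182 UMIs per gene and library in T cells.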
